A study of Mus musculus with 8 samples.

Results

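Ribosomal protein transcripts of the cytosolic ribosome were followed in hippocampal RNA from Jade2-knockout and control mice. They are the rows of the authors' deposited table whose symbol begins with Rps, Rpl or Rplp followed by a number and at most 1 letter, or is Rpsa, plus unnamed transcript models at the same loci. The 10 rows reported here come from 7 genes, out of 1679 rows from 1404 loci in the table. The small subunit contributed 6 rows from 4 genes (Rps15, Rps15a, Rps16 and Rps19), and the large subunit 4 rows from 3 genes (Rpl13, Rpl27a and Rpl41). GENCODE M21 annotates 80 protein-coding mouse genes under these symbols.

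Both groups were C57BL/6 mice aged 8 weeks, wild type in the 4 control libraries and Jade2 knockout in the other 4, with hippocampal total RNA as the source. Jade2 encodes a PHD-finger partner of the histone acetyltransferase HBO1. The labels do not say how the allele was made, in which cells it acts, or whether each library came from its own animal, so p-values measure the spread between these samples. Abundances carry no named unit and are given as FPKM, which is scaled to transcript length. In bulk tissue, fewer cells of a type and less RNA per cell cannot be told apart.

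The table holds only transcripts that the authors called at an unadjusted p of at most 0.0498 with a log2 fold change of 1.00 or more in either direction. It therefore lists 1679 of the 104721 transcripts that the adjusted p-values imply, or 1.6%. A difference between the groups is a condition of being listed, and the isoforms of these genes that are not listed were not analysed here. Median listed abundance per library was 0.77 to 0.90 FPKM. The annotated Jade2 transcript ENSMUST00000109091 was listed at 0 in all 4 knockout libraries and at 1.41 to 5.05 FPKM in the controls. Of the 4 merged models at that locus, MERGE.3721.8 had the same pattern, at 0 to 0.00225 FPKM against 1.79 to 11.8 FPKM. The other 3 were listed at 0 in every control library and at 0.501 to 12.3 FPKM in the knockout libraries, so this checks the labels only for single transcripts. Of 8 general neuron markers and 8 markers of hippocampal granule and pyramidal cells, 1 (Rbfox3) and 2 (Prox1 and Grik4) have a row, each an unnamed model assigned here by position. Their models reached 47.7, 22.1 and 8.05 FPKM in the highest control library, and the other 13 markers have no row to check the tissue label on.

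The cytosolic ribosome is built from ribosomal RNA and one copy of most ribosomal proteins, with the small subunit decoding the mRNA and the large subunit joining amino acids. Mammalian ribosomal protein mRNAs are short, abundant and mostly begin with a run of pyrimidines, the terminal oligopyrimidine tract, through which mTOR signalling sets their translation. In neurons these mRNAs are found in the cell body and in dendrites and axons. Many of these genes also yield minor transcripts that keep an intron or begin at another first exon, and some of those are removed by RNA decay.

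The sequences that set the listed isoforms apart are shown first. Rps15 makes a protein of the small subunit that lies near the site where mRNA is decoded. Its isoform Rps15-202 (ENSMUST00000068408, mm10, chromosome 10, 80292453 to 80294114, plus strand) has 4 exons, 500 exonic bases and a coding sequence of 435 bases. The start codon of this isoform is at the end of a first exon of 31 bases. Rps15-201 (ENSMUST00000062674, chromosome 10, 80292645 to 80294087) begins 192 bases further on, inside the first intron. Its first exon holds the last 130 bases of that intron of 291 bases. Its annotated coding sequence has 354 bases and is identical to the 3′ end of the longer one, so the first 27 codons are missing. The coding starts of both are given below from the GENCODE M21 transcripts, with the start codon annotated for Rps15-201 in capitals.
Rps15-202: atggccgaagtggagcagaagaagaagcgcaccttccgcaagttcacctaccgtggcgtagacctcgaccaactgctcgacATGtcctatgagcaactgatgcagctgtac
Rps15-201: ATGtcctatgagcaactgatgcagctgtac

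Of the 9 reported rows with an Ensembl identifier, 5 are annotated as protein coding and 4 as retained intron, that is 44.4%. Retained-intron transcripts are 18.1% of the 1136 listed transcripts found in GENCODE M21. They are 35.5% of the 484 annotated transcripts of the 80 ribosomal protein genes, so the share among the members is near that of the family. In Rps16-202 the whole intron 3 of the spliced transcript is kept, 89 bases at chromosome 7, 28352274 to 28352362. In Rpl27a-201 it is intron 2, 269 bases at chromosome 7, 109519649 to 109519917. In Rpl41-202 it is intron 2, 268 bases at chromosome 10, 128548681 to 128548948, on the minus strand. Rpl13-203 runs 510 bases into intron 5, which has 1089 bases and starts at chromosome 8, 123103955. The bases below are the ones that such a transcript has and the spliced mRNA lacks. Intron bases are in capitals, after 12 exon bases, with the Rps16 intron shown whole between 12 exon bases on each side and the first 40 bases of the others.
Rps16-202, chr7:28352262-28352374, plus strand: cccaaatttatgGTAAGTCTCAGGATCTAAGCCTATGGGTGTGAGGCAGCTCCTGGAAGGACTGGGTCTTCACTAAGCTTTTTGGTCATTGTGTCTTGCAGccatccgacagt
Rpl27a-201, chr7:109519637-109519688, plus strand: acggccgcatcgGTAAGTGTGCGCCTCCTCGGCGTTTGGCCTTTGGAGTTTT
Rpl41-202, chr10:128548909-128548960, minus strand: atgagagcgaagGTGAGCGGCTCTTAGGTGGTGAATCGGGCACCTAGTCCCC
Rpl13-203, chr8:123103943-123103994, plus strand: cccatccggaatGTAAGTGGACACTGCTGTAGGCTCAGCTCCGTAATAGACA

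Of the other coding rows, Rps15a-201 and Rpl41-203 have the coding sequence of another annotated isoform and differ from it outside that sequence, first exon included. Rps15a-201 has the same 390 coding bases as ENSMUST00000131374 but another first exon, of 206 bases in place of 53. It has 640 bases in all against 5179, so the first exons are not the only difference. Rpl41-203 has the same 75 coding bases as ENSMUST00000176010 with a first exon of 75 bases in place of 218. Rps19-209 has an annotation that stops inside the coding sequence, and its 400 coding bases are the start of the 435 of ENSMUST00000108430.

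**Figure D1:**
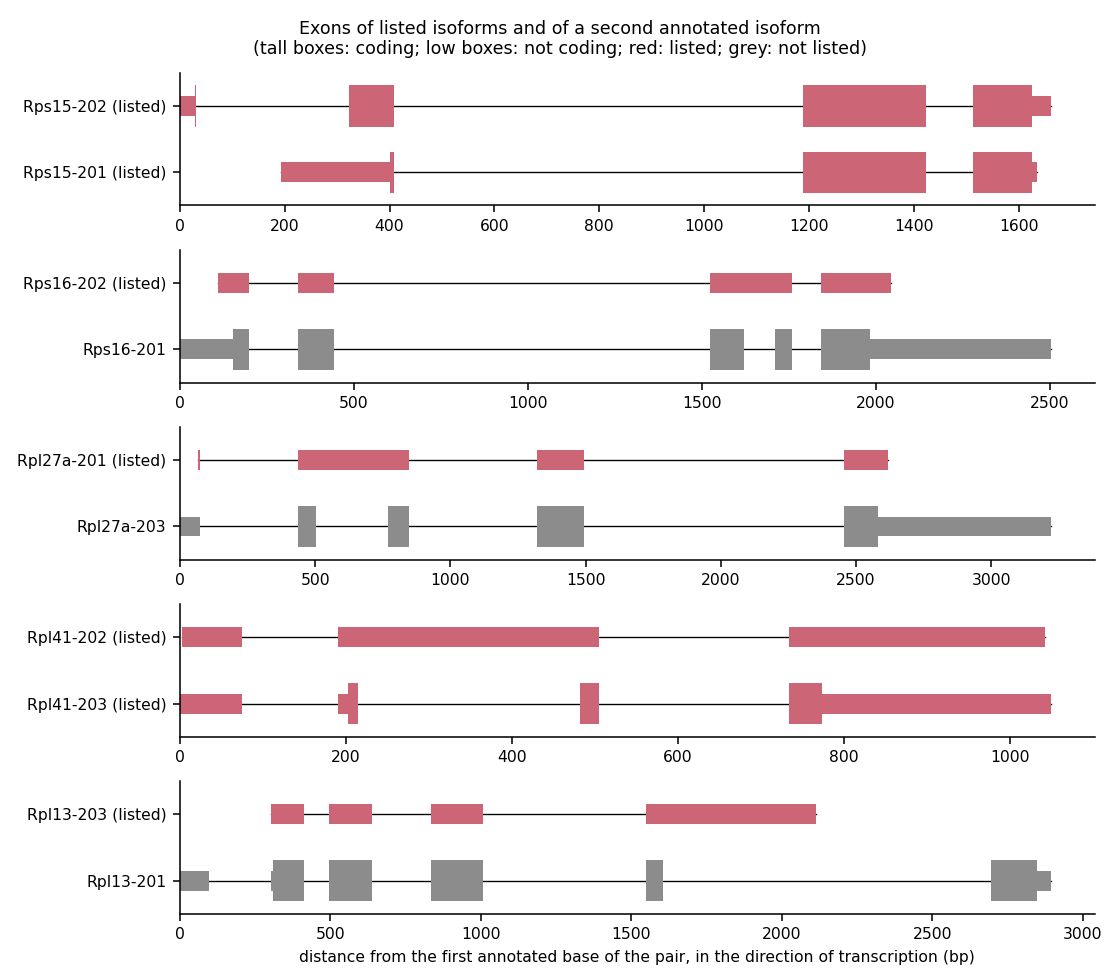
Exon maps of listed isoforms beside another annotated isoform of the same gene, on an axis of distance in bp from the first annotated base of each pair. Rps15-201 begins 192 bases after Rps15-202, and Rps16-202, Rpl27a-201 and Rpl41-202 each hold a whole intron of the spliced transcript.

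The start regions of these genes were searched for the pyrimidine tract in RefSeq sequences of GRCm38.p6, which held all 7 genes. An unbroken run of at least 8 bases, each C or T, was sought on the strand that reads as the mRNA. Such a run lay within 50 bases before to 50 bases after a RefSeq start in 7 of 7 genes. The same window held one in 85.2% of 61 ribosomal protein genes and in 39.3% of all 27025 genes. On the other strand a run was found in 0 of the 7, in 23.0% of the 61 ribosomal protein genes and in 41.1% of all genes. With a narrower window of 20 bases before to 30 after, which was tried first, the count was 3 of 7, against 55.7% of ribosomal protein genes and 21.5% of all genes. Relative to a RefSeq start, the longest run began at -47 (Rps16), -45 (Rps19), -16 (Rpl13), -15 (Rps15a), -4 (Rpl27a), 25 (Rps15) and 40 (Rpl41). A run in the window is thus not always at the start itself, and whether it opens the mRNA was not tested. The longest runs of Rpl13, Rpl27a, Rps15a, Rps16 and Rps19 lie before the first base of the listed isoform, which therefore lacks them. The Rps15 run lies within Rps15-202, from 80292453, and before Rps15-201, from 80292645. The longest runs are shown in capitals for the gene with the most abundant rows and for the gene with the longest run.
Rps15, chr10:80292448-80292477, plus strand: agcccgtaCTTCCTTTTCCgagtaaccgcc
Rpl27a, chr7:109519183-109519212, plus strand: ttcgtgagCTCCTCCCTTTTCCCTTTCTgc

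Among the 10 rows, 3 had a higher average in the knockout and 7 a lower one. Of all listed rows, 48.5% are higher and 51.5% lower. The median difference of the 10 on the log2(FPKM + 0.5) scale was -1.33, and that of all listed rows was -0.51. These medians are not at like abundance, because many other listed rows average under 1 FPKM and this scale understates their change. Rows of the same locus are also not independent. By subunit, small-subunit rows had 3 higher and 3 lower, and large-subunit rows had 0 higher and 4 lower, a split of few rows that was not tested. Limma was run on the 849 rows that averaged 1 FPKM or more, all 10 ribosomal rows among them, and at an adjusted p of 0.05 it called 0 (0%). At an unadjusted limma p under 0.05 there were 9 of the 10, against 70.6% of all tested rows, a share that listing largely fixes. Limma adjusted p was 1 for all 10, and the exact permutation p-values given below for single isoforms are two-sided and not adjusted. By the adjusted p in the authors' deposited table, 0 of the 10 pass 0.05, as do 0.893% of all rows. The smallest adjusted p among these isoforms in the authors' deposited table is 0.597, for Rps15-202. In 3 of the 10 rows the 4 knockout values did not overlap the 4 control values, against 36.1% of listed rows, and all 3 are at the Rps15 locus.

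**Figure D2:**
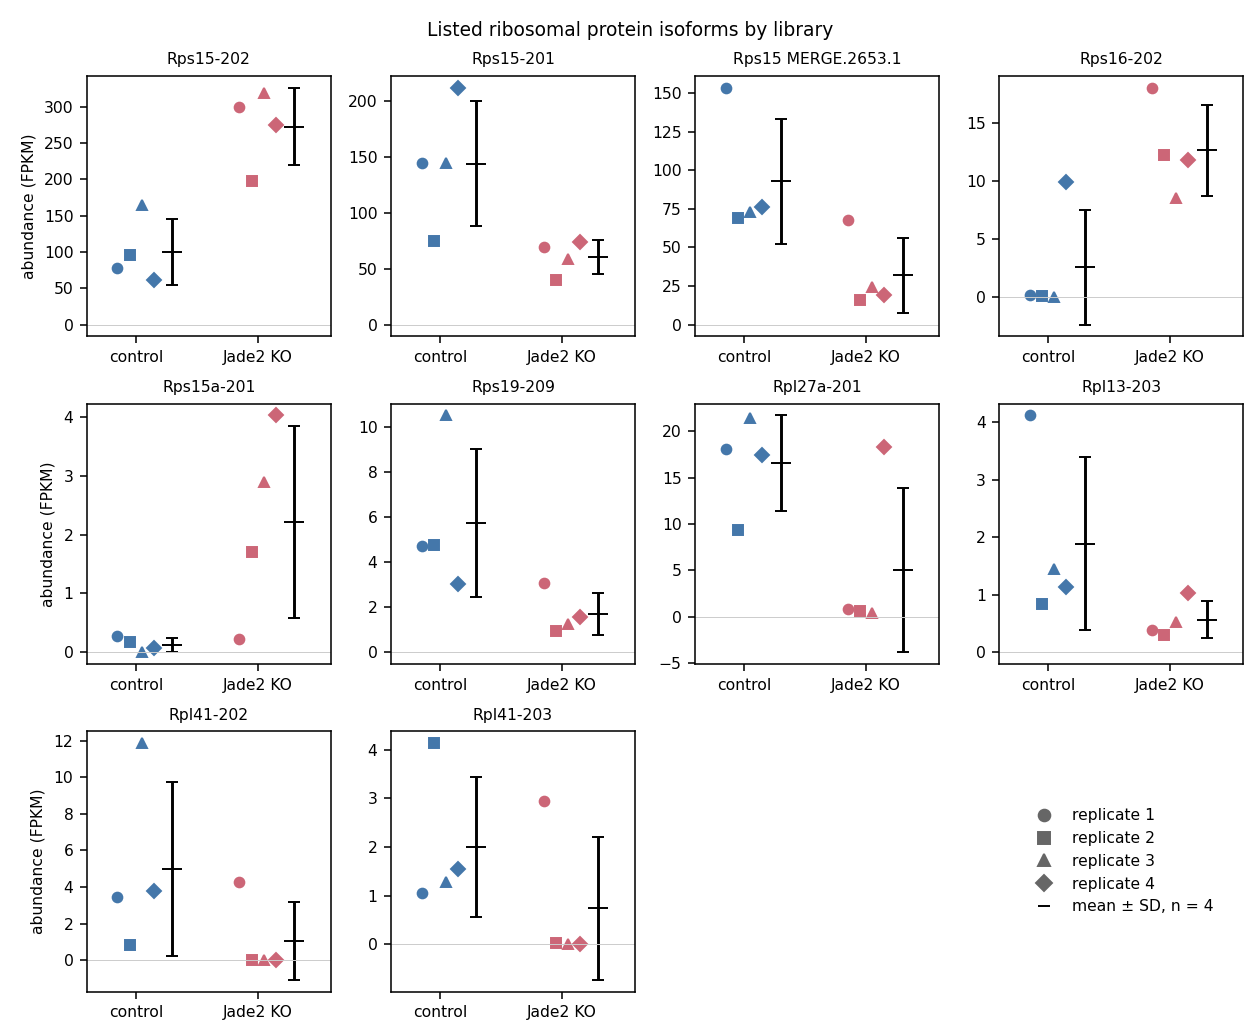
Abundance in FPKM of each of the 10 isoforms in the 4 control and 4 knockout libraries, with the mean and SD of each group (n = 4). The groups are apart for the 3 Rps15 rows, while in the other panels at least 1 library lies among those of the other group.

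Rps15 carried the most abundant rows and the clearest contrast between isoforms. The full-length isoform Rps15-202 stood at 299, 197, 319 and 275 FPKM in the knockout libraries, listed here and below in the order of replicates 1 to 4. The controls were at 77.9, 95.2, 165 and 60.9 FPKM. Every knockout library was above every control library. Its difference was 1.52 on the log2 scale (SE 0.341, 2.73-fold between means, two-sided exact permutation p = 0.0286).

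The 2 other rows of the locus went the other way. Rps15-201, with the shorter annotated coding sequence, stood at 69.8, 39.7, 58.8 and 73.8 FPKM in the knockout libraries, against 145, 74.3, 145 and 212 FPKM in the controls. The groups were apart only narrowly, with knockout replicate 4 just below control replicate 2. The difference was -1.19 (SE 0.389, two-sided exact permutation p = 0.0286). The merged model MERGE.2653.1 (chromosome 10, 80292453 to 80294087) stood at 67.9, 16.1, 24.1 and 19.5 FPKM in the knockout libraries, against 154, 68.9, 72.8 and 76.3 FPKM in the controls. Knockout replicate 1 came within about 1 FPKM of the lowest control, and replicate 1 was the highest library in each group. Its difference was -1.69 (SE 0.514, two-sided exact permutation p = 0.0286). This model starts with Rps15-202 and ends with Rps15-201, and its exon structure is unknown here.

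Summed over the 3 rows, the locus stood at 437, 253, 402 and 368 FPKM in the knockout libraries, against 376, 238, 382 and 349 FPKM in the controls. These ranges overlap widely, and the spread within each group exceeds the distance between group means of 365 ± 79.6 and 337 ± 66.9 FPKM (SD, n = 4 each). The difference of the sum was 0.11 on the log2 scale (SE 0.236, two-sided exact permutation p = 0.514, adjusted p = 0.688 over the 214 loci with several listed rows). Of those 214 loci, 17.8% had an unadjusted exact p under 0.05 for the sum and 0% an adjusted one. The adjustment runs over loci of rows listed for a difference, which selection makes invalid. Without control replicate 2 the difference of the Rps15 sum was -0.05, so its sign is not settled. The closeness of the sums also rests on the merged model. The annotated pair alone summed to 237 to 378 FPKM in the knockout libraries and 170 to 310 FPKM in the controls, a log2 difference of 0.46 (SE 0.246, two-sided exact permutation p = 0.114, not adjusted). GENCODE M21 annotates 2 Rps15 transcripts and both are listed.

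What differed was the division of that sum. Rps15-202 made up 68.5%, 78.0%, 79.4% and 74.6% of the listed sum in the knockout libraries and 20.7%, 39.9%, 43.1% and 17.4% in the controls. It was the majority of the sum in every knockout library and in none of the controls. In control replicates 2 and 3 it was still the largest of the 3 rows, with Rps15-201 next at 31.2% and 37.9%. The mean share was 75.1% ± 4.84 in the knockout and 30.3% ± 13.1 in the control (SD, n = 4 each), a difference of 44.8 percentage points (SE 6.97, two-sided exact permutation p = 0.0286). Rps15-201 held 16.6% ± 2.39 and 42.1% ± 12.9, and MERGE.2653.1 held 8.30% ± 4.85 and 27.7% ± 9.69, in the same order. For each of the 3 shares the exact p is 0.0286, the smallest that 70 assignments can give, and the adjusted p over 456 listed rows at such loci is 0.0771. Unadjusted exact p-values under 0.05 for shares were found for 37.1% of those rows, and 138 of the 214 loci list rows in both directions. Listing therefore favours such contrasts, and the share p-values are no support apart from it.

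Taking only the annotated pair, Rps15-202 was 3.72 to 5.42 times as abundant as Rps15-201 in the knockout libraries and 0.288 to 1.28 times in the controls. The ranges are apart, with a log2 difference of 2.72. This ratio was chosen after the values were seen, and the rows were listed for differing in opposite directions. Its two-sided exact permutation p of 0.0286, not adjusted, is therefore no support. The pair share all coding bases of Rps15-201, so reads that tell them apart come only from their 5′ ends and the last bases of the 3′ end. Reads from near-identical copies add uncertainty. The processed pseudogene Rps15-ps2 (ENSMUST00000121788, chromosome 6, 58017506 to 58017943) is also listed, and 97.7% of its 438 bases aligned to Rps15-202 are identical. It averaged 0.196 ± 0.236 FPKM in knockouts and 0.657 ± 0.148 FPKM in controls (SD, n = 4 each), far below the Rps15 rows. Whether reads moved between the pseudogene and Rps15 was not tested.

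**Figure D3:**
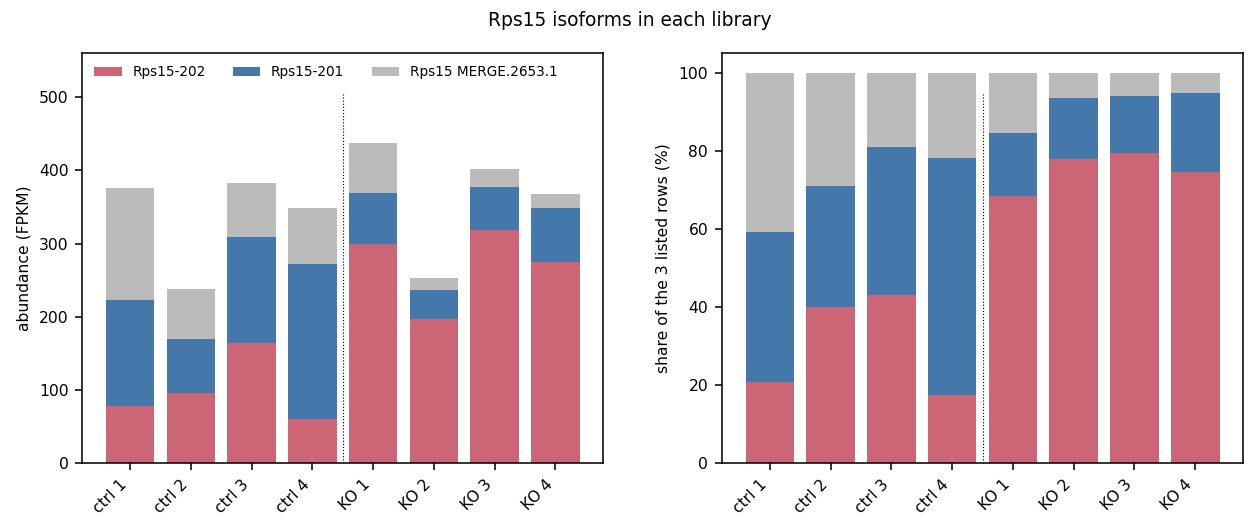
Rps15 rows in each library, as stacked abundances in FPKM on the left and as a percentage of their sum on the right. Column heights run from 238 to 437 FPKM and overlap between groups, while the Rps15-202 share is 68.5% or more in each knockout library and 43.1% or less in each control library.

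Among the other small-subunit proteins, rows of Rps16 and Rps15a had higher averages in the knockout, and the Rps19 row a lower one.

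Rps16 makes a small-subunit protein that reaches toward the decoding site. The intron-retaining Rps16-202 (chromosome 7, 28350763 to 28352696) stood at 18.0, 12.2, 8.49 and 11.8 FPKM in the knockout libraries, against 0.152, 0.0215, 0 and 9.94 FPKM in the controls. Control replicate 4 lay among the knockout libraries and the other 3 controls were near 0. The difference was 3.46 (SE 0.899, exact permutation p = 0.0571). With 1 library left out it ranged from 3.06 to 4.52. The largest was without control replicate 4, where the limma adjusted p was 0.0828.

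Rps15a makes a small-subunit protein unrelated to that of Rps15 despite the name. Rps15a-201 (chromosome 7, 118109064 to 118115677, minus strand) stood at 0.217, 1.71, 2.89 and 4.03 FPKM in the knockout libraries, against 0.276, 0.169, 0 and 0.0739 FPKM in the controls. Knockout replicate 1 lay among the controls and the other 3 knockout libraries were above all of them. The difference was 1.84 (SE 0.577, exact permutation p = 0.0571), 2.38 without knockout replicate 1 and 2.99 with a pseudocount of 0.1. Rps19, mutated in some patients with Diamond-Blackfan anaemia, makes a protein needed for maturation of the small subunit. Rps19-209 (chromosome 7, 24884651 to 24888950) stood at 3.05, 0.919, 1.25 and 1.54 FPKM in the knockout libraries, against 4.71, 4.74, 10.5 and 3.001 FPKM in the controls. The groups touch, since knockout replicate 1 was just above control replicate 4. Its difference was -1.47 (SE 0.497, exact permutation p = 0.0571).

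Large-subunit rows had lower averages in the knockout throughout, and in none of the 4 were the groups apart. Rpl27a makes a core large-subunit protein. The intron-retaining Rpl27a-201 (chromosome 7, 109519213 to 109521766) stood at 0.802, 0.620, 0.451 and 18.3 FPKM in the knockout libraries, against 18.1, 9.32, 21.4 and 17.4 FPKM in the controls. Knockout replicate 4 was at the level of the controls, and the other 3 were below all of them. The difference was -2.86 (SE 0.894, exact permutation p = 0.114). With 1 library left out it ranged from -3.87 to -2.44. The lowest was without knockout replicate 4, where the limma adjusted p was 0.317.

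Rpl41 makes one of the smallest known eukaryotic proteins. The intron-retaining Rpl41-202 (chromosome 10, 128548121 to 128549159) stood at 4.27 FPKM in knockout replicate 1 and was listed at 0 in the other 3 knockout libraries, against 3.46, 0.854, 11.9 and 3.81 FPKM in the control. The spliced coding Rpl41-203 (chromosome 10, 128548114 to 128549162) stood at 2.95, 0.0317, 0 and 0 FPKM in the knockout libraries, against 1.06, 4.14, 1.29 and 1.55 FPKM in the controls. In both rows the same library, knockout replicate 1, lay among the controls. Differences were -2.23 (SE 0.844, exact permutation p = 0.114) and -1.46 (SE 0.670, exact permutation p = 0.114). With 1 library left out they ranged from -3.04 to -1.70 and from -2.15 to -1.12, both lowest without knockout replicate 1. With a pseudocount of 0.1 they were -3.79 and -2.86, so their size rests on the values near 0. An abundance of 0 can be a failed estimate or reads given to another isoform of this gene, of which 2 of 7 annotated are listed.

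The 2 Rpl41 rows summed to 7.22, 0.0317, 0 and 0 FPKM in the knockout and to 4.52, 4.99, 13.2 and 5.36 FPKM in the control. Unlike at Rps15, both rows of this locus were lower on average, and the sum differed by -2.77 (SE 1.04, two-sided exact permutation p = 0.114, adjusted p = 0.240 over 214 loci). With 1 library left out the difference ranged from -3.75, without knockout replicate 1, to -2.43. With a pseudocount of 0.1 it was -4.36. In limma on the locus sums the adjusted p was 0.0497. Both this adjustment and that of the exact p run over listed loci only, which selection makes invalid. No isoform shares were computed, because the sum was 0 in 2 libraries. Rpl13 makes a large-subunit protein. Rpl13-203 (chromosome 8, 123102653 to 123104464), whose annotation ends inside an intron, stood at 0.391, 0.307, 0.525 and 1.03 FPKM in the knockout libraries, against 4.12, 0.842, 1.45 and 1.14 FPKM in the controls. The groups overlap through knockout replicate 4 and control replicate 2, and control replicate 1 was far above the rest. The difference was -1.03 (SE 0.460, exact permutation p = 0.0571), and -0.66 without control replicate 1.

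The 4 retained-intron rows were not alike in direction, with Rps16-202 higher and Rpl27a-201, Rpl41-202 and Rpl13-203 lower in the knockout. Their levels were below those of the Rps15 rows, with means over all 8 libraries of 7.58, 10.8, 3.03 and 1.23 FPKM, against 186 FPKM for Rps15-202. Values of 0 in at least 1 library occurred in 4 of the 10 rows, against 41.2% of listed rows. Knockout replicate 1 was the knockout library nearest to the controls for both Rpl41 rows, MERGE.2653.1, Rps19-209 and Rps15a-201. Its part in the results was measured only by leaving it out.

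**Figure D4:**
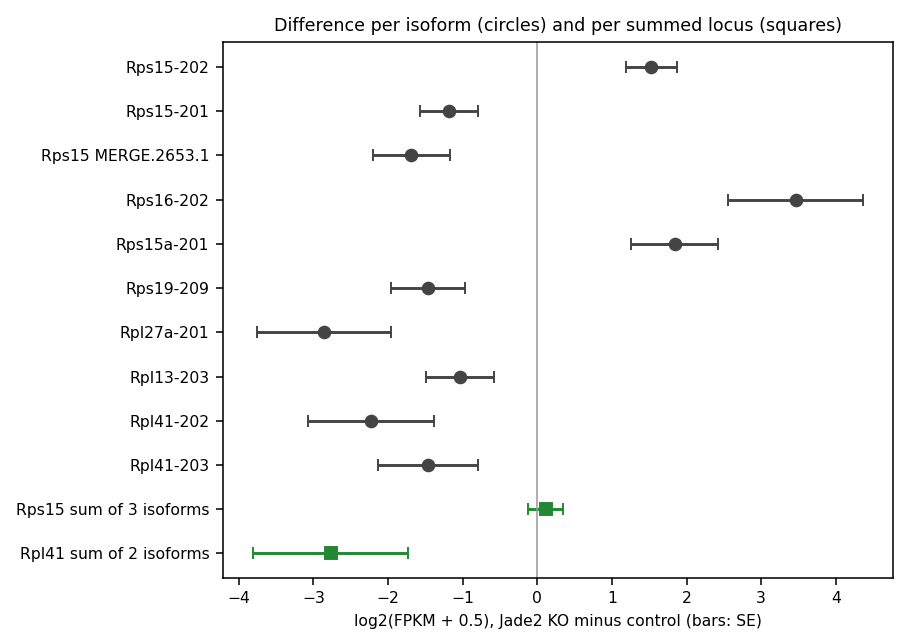
Difference in mean log2(FPKM + 0.5), knockout minus control, for each of the 10 isoforms (circles, limma SE) and for the summed Rps15 and Rpl41 loci (squares, SE from the group variances). The Rps15 isoforms lie on both sides of 0 and their sum at 0.11, while both Rpl41 isoforms and their sum lie below 0.

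Other genes of ribosome production and translation were also listed in part, and 0 of their rows abundant enough for limma had an adjusted p under 0.05. Of 103 ribosome biogenesis factors, 10 had a listed row, with 7 rows higher and 6 lower, 8 of them tested. Riok1, a kinase that acts in small-subunit maturation, had rows both ways, neither tested, with ENSMUST00000226006 at 0.712 ± 0.414 FPKM in knockouts and 0.0467 ± 0.0745 FPKM in controls, and ENSMUST00000224477 at 0.176 ± 0.352 and 0.746 ± 0.276 FPKM (SD, n = 4 each). Taf1b, a subunit of the RNA polymerase I selectivity factor, had a retained-intron row at 1.62 ± 0.188 and 0.779 ± 0.269 FPKM (SD, n = 4 each).

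Translation initiation and elongation factors had 7 rows from 4 of 58 genes, 4 higher and 3 lower, 4 of them tested. Of the 7 rows, Eef1d ENSMUST00000109975, a subunit of the exchange factor for elongation factor 1, averaged 0.690 ± 1.38 FPKM in knockouts and 1.74 ± 0.556 FPKM in controls. The retained-intron Eif4a2 ENSMUST00000149328, of an RNA helicase, was not tested and averaged 0.711 ± 0.334 and 0.117 ± 0.0421 FPKM (SD, n = 4 each). The cap-binding factor Eif4e was the third, with ENSMUST00000200020 at 2.12 ± 1.31 FPKM in knockouts and 0.0023 ± 0.0046 FPKM in controls (SD, n = 4 each). Genes of mTOR signalling and pyrimidine-tract regulation had 6 rows from 4 of 31 genes, 4 higher and 2 lower, and 1 was abundant enough to be tested. Lamtor3, a scaffold subunit of the lysosomal Ragulator complex, had a retained-intron row at 0.678 ± 0.167 and 0.156 ± 0.102 FPKM, Akt1s1, an inhibitory mTORC1 subunit, a coding row at 1.15 ± 0.383 and 0.499 ± 0.206 FPKM, and Tsc1, an inhibitor of the pathway, a merged model at 0.398 ± 0.461 and 0.831 ± 0.162 FPKM (SD, n = 4 each, knockout first). The rows given for Lamtor3, Akt1s1 and Tsc1 were not tested.

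Mitochondrial ribosomal proteins had 5 rows from 5 of 78 genes, 3 higher and 2 lower, 3 of them tested. Mrpl15 ENSMUST00000146665 averaged 1.57 ± 0.723 FPKM in knockouts and 0.459 ± 0.919 FPKM in controls, Mrps11 ENSMUST00000136001 (not tested) 1.01 ± 0.40 and 0.225 ± 0.380 FPKM, and the Mrps2 model MERGE.13312.3 1.69 ± 0.390 and 4.95 ± 2.88 FPKM (SD, n = 4 each). Of 19 genes of ribosomal protein surveillance and ribosome quality control, 1 was listed. This was Mdm2, the p53 ubiquitin ligase that free ribosomal proteins can bind, with ENSMUST00000020408 at 6.90 ± 1.51 FPKM in knockouts and 2.61 ± 2.90 FPKM in controls (SD, n = 4 each). None of 9 ribosomal-protein-like paralogs was listed.

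Cell type markers were listed in 11 rows, and 0 of the 9 tested passed limma at an adjusted p of 0.05. The 1 neuron and 2 granule and pyramidal cell rows were lower on average in the knockout. The Rbfox3 model MERGE.5068.1 stood at 0.00878 to 1.32 FPKM in the knockout libraries and 1.38 to 47.7 FPKM in the controls, and the Prox1 and Grik4 models together at 1.14 to 13.6 and 14.5 to 26.1 FPKM. Microglia had 2 of 6 genes listed, both lower, with sums of 0.125 to 1.57 FPKM in the knockout libraries and 2.94 to 22.9 FPKM in the controls. Oligodendrocytes and precursors had 1 of 7, lower, at 0.619 to 2.42 against 2.53 to 2.97 FPKM. Endothelial and mural cells had 3 of 8, all higher on average, with sums of 10.1 to 17.8 against 1.78 to 11.4 FPKM. Ependyma and choroid plexus had 1 of 5, Foxj1, with 1 model higher and 1 lower and sums of 2.10 to 5.83 against 2.42 to 3.08 FPKM. Of 6 astrocyte and 5 blood markers none had a row. These sums cover only transcripts listed for a difference, so the choice of rows favours sums that differ. The endothelial and mural sums and the ependyma and choroid plexus sums still overlap between groups. The part of cell makeup in the ribosomal rows was not tested.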

How the data were processed

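RNA from 8 hippocampal libraries, 4 per group, was analysed from the authors' deposited transcript table. Per the labels' protocols, the NEBNext Ultra RNA kit was used throughout. HISAT2, Cuffdiff and mm10 are named without versions or roles, per the submitters' processing notes. The authors deposited abundances with no unit named, taken here as FPKM, together with log2 fold changes and p-values of their own, whose test is unknown here. Depth and counting error are unknown, because the table holds no counts.

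Rows averaging 1 FPKM or more were tested in one fit over the table with limma 3.58.1 in R 4.3.3 on log2(FPKM + 0.5) with a variance trend, two-sided, and Benjamini-Hochberg adjustment over 104721 transcripts, the number that the authors' adjusted p-values imply. This scale understates the change of low transcripts. The variance trend was estimated on rows selected for a difference, so limma p-values are approximate. Abundances were summed per locus, and sums and isoform shares were compared with exact permutation tests, adjusted over all loci or rows of the table with 2 or more listed rows. Annotation and transcript sequences came from GENCODE M21 (GRCm38), where all 9 identified members had identical coordinates, and start regions from RefSeq (GRCm38.p6). Whether counting used strand is unknown here, and ribosomal protein genes have many processed copies, so their values are uncertain. Python 3.11.15 with numpy 2.4.6 and pandas 2.3.3 was used for the rest.

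For gene lists, 328 unnamed models were given the name of the same-strand GENCODE gene whose transcript overlapped them most, by 50% or more of both lengths. All reported members are named, with 1 further row kept in the fits but not reported here, and of each pathway list up to 3 rows with the smallest unadjusted p of the authors. The members and lists were chosen with earlier results of these data known. The count at an unadjusted limma p and the exact permutation test of single isoforms were chosen after seeing the data.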

Additional observations from a re-analysis of the deposited data

Results flagged for a closer look

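In 10 of 30 groups of 4 values examined (10 isoforms, 2 locus sums and 3 shares, in each group), 1 library lay far from the other 3. Chance flags about 1 in 20 groups, or 1.5 here, if values are normally distributed, and sums and shares repeat values of the isoforms. Knockout replicate 1 was the distant library in 5 of them. It was at 4.27 FPKM for Rpl41-202 with the others at 0, at 2.95 FPKM for Rpl41-203 with the others at 0.0317 or less, and at 7.22 FPKM for the Rpl41 sum. For MERGE.2653.1 of Rps15 it was at 67.9 FPKM with the others between 16.1 and 24.1 FPKM, which is 15.5% of the locus sum with the others between 5.29% and 6.37%. Knockout replicate 4 was at 18.3 FPKM for Rpl27a-201 with the others at 0.802 FPKM or less. Among controls, replicate 4 was at 9.94 FPKM for Rps16-202 with the others at 0.152 FPKM or less, and replicate 1 was at 154 FPKM for MERGE.2653.1 with the others between 68.9 and 76.3 FPKM. Control replicate 2 was at 4.14 FPKM for Rpl41-203 with the others at 1.55 FPKM or less, and control replicate 3 at 13.2 FPKM for the Rpl41 sum with the others at 5.36 FPKM or less.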

How the results depend on the processing

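The count of ribosomal isoforms called by limma stayed at 0 with pseudocounts of 0.1 and 1, without the abundance filter, with a mean of at least 5 FPKM, with median scaling, without the variance trend, with a replicate block and without each library (range 0 to 0). Adjusted over listed transcripts only, which selection makes invalid, it was 5, and at an unadjusted p it was 9. No isoform changed sign in the 110 combinations of isoform and setting in which the estimate can move. Listing for a difference in these same libraries largely fixes that outcome, so it is no support. The Rps15 locus sum ranged from -0.045 to 0.28 with 1 library left out, its sign turned without control replicate 2, and it was 0.46 over the annotated isoforms only, a setting chosen after seeing the data. With a pseudocount of 0.1 the Rpl41 sum was -4.36. The Rpl41 sum, from -3.75 to -2.43 with 1 library left out, was -2.77 in limma on locus sums with an adjusted p of 0.0497 over the listed loci, which selection makes equally invalid, and with a replicate block there the adjusted p was 0.0609. The Rps15-202 share difference ranged from 40.5 to 49.1 percentage points, that of Rps15-201 from -29.1 to -19.3 and that of MERGE.2653.1 from -22.2 to -15.0. Same-numbered knockout and control libraries deviated together with correlations of -0.033 to 0.041, and differently numbered ones with -0.037 to 0.036. These come from rows listed for a difference and cannot decide whether the numbers pair the samples, which is unknown here. The replicate block left the isoform count at 0. Abundances under 1 FPKM and the values of 0 limit the low rows most.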
